A study of Homo sapiens with 24 samples.

Results

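The bone morphogenetic protein (BMP) genes described here are 10 members: the ligands BMP4 and BMP2, the target genes ID1, ID2, ID3, ID4, MSX1 and MSX2, and the feedback inhibitors SMAD6 and BAMBI. Every probe set whose annotation names exactly 1 of these symbols was taken, which gave 22 of the 41097 probe sets that name 1 gene, and 10 of 19775 genes. The rule used the annotation only and no measured value. ID4 has 5 such probe sets, SMAD6 has 4, MSX2 has 3, ID2, MSX1 and BMP2 have 2 each, and ID1, ID3, BAMBI and BMP4 have 1 each. A further 1 probe set, which names ID2 together with its pseudogene ID2B, was left out. Each gene was described by its probe set with the highest mean over the 24 arrays, and values are log2 probe set values.

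The study profiled human embryonic stem cell lines to ask how mouse embryonic fibroblast (MEF) feeders, factors secreted by MEFs and a block of lactate transport alter the cells. In the first 12 arrays the lines H1, H9 and HSF1 each gave 1 array in each of 4 groups, so that a replicate is a cell line. These groups were feeder-supported (FS) culture with AZD3965 at 250 nM, which blocks the lactate carrier MCT1, FS culture with DMSO, feeder-free (FF) culture with the inhibitor, and FF culture with DMSO, each treated for 5 days. In the other 12 arrays feeder-free cells of H9 or HSF1 were held in MEF-conditioned or in unconditioned medium, with 3 biological replicates in each of the 4 groups, so that these comparisons cover 2 lines. For conditioned medium the duration is 5 days in the sample labels but 24 hours in the series' description, and the files do not settle which applies. The labels name no genetic change in any group, and the FS groups shared their dishes with mouse fibroblasts. Whether mouse RNA contributed to the FS values was not tested.

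BMP ligands such as BMP4 and BMP2 are secreted dimers that bind type I and type II receptor kinases. The receptors phosphorylate SMAD1, SMAD5 and SMAD9, which join SMAD4 and bind regulatory DNA of target genes. The ID genes are among the most direct targets: ID proteins lack a DNA-binding region and hold E proteins away from DNA. SMAD6 is an inhibitory SMAD that competes with the receptor-activated SMADs, and BAMBI is a receptor-like membrane protein without kinase activity, so both feed back on the pathway. MSX1 and MSX2 encode homeobox repressors that BMP induces in many embryonic tissues. In human pluripotent cells, added BMP4 is known to drive differentiation toward extraembryonic and mesodermal fates.

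Promoter sequences are shown for ID1, SMAD6 and BAMBI, which were higher in conditioned medium in both lines, and for ID3, which was not. Each run is the 250 bases before the gene start on the gene's own strand, 5′ to 3′, from RefSeq, build GRCh38.p14. Capitals mark matches to GTCTAGAC, a palindrome of SMAD boxes, or to GGCGCC, a GC-rich SMAD site. Both motifs read the same on either strand, and they do not overlap each other.
ID1, chr20:31605039-31605288, plus strand: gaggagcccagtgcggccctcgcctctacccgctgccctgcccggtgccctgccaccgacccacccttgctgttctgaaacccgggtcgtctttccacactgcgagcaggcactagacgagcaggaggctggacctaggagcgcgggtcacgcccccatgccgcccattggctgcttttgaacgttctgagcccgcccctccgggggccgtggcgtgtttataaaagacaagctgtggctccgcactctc
SMAD6, chr15:66701986-66702235, plus strand: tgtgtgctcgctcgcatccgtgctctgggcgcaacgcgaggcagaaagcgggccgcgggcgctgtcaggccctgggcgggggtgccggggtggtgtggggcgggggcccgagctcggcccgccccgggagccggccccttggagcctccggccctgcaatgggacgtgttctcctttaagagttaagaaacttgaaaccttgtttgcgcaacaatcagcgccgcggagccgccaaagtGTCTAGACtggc
BAMBI, chr10:28677271-28677520, plus strand: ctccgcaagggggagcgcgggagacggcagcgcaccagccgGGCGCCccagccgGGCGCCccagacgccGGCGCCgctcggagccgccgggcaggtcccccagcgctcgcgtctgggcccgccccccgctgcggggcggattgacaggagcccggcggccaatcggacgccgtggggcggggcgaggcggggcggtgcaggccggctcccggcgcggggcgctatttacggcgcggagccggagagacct
ID3, chr1:23559502-23559751, minus strand: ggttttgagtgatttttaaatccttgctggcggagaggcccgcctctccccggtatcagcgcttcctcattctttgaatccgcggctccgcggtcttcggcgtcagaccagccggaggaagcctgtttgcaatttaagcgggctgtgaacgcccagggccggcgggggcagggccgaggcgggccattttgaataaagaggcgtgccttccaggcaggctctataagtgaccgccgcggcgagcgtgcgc
The palindrome is in the SMAD6 run, 12 bases before the start, and in 0.182% of 35116 promoter windows of this length. The GC-rich site occurs 3 times in the BAMBI run and in 16.4% of all windows. Of the 9 members matched in the promoter table, with 11 starts, the palindrome was found for SMAD6 and the GC-rich site for BAMBI and for 1 of the BMP4 starts. A match describes letters in this window, and the files hold no measurement of SMAD binding.

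The FS arrays of HSF1 stood apart, with correlations of 0.86 to 0.961 to the other 22 arrays, which correlated with one another at 0.948 to 0.9976. For unconditioned H9 the ACTB control probe sets were 3.25 and 2.89 higher at the 3-prime than at the 5-prime end on replicates 2 and 3, a sign of RNA degradation. Replicate 1 had 1.07, and the conditioned H9 arrays had 1.42 to 1.84. Calls that changed without either set of 2 arrays are given below with and without them. Over the 24 arrays the pluripotency genes NANOG, SOX2 and DNMT3B lay at 11.6 to 12.49, 11.62 to 12.99 and 12.93 to 13.86, so the labelled cell type carried its defining markers throughout. POU5F1 has no probe set naming it alone and was not analysed here. The number of arrays limits the precision.

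All 10 members passed the filter on low values in both sets of 12 arrays, as did 19 of their 22 probe sets. The order of the ID1 group means was, low to high, H9 unconditioned (9.93), FF inhibitor (9.95), FF DMSO (10.62), FS inhibitor (10.73), FS DMSO (10.99), HSF1 unconditioned (11.78), H9 conditioned (11.91) and HSF1 conditioned (12.97). Only 3 of the steps in that order, from FF inhibitor to FF DMSO, from FS DMSO to HSF1 unconditioned and from H9 conditioned to HSF1 conditioned, exceeded the pooled SD of 0.36 within groups. BMP4 ran from 6.71 in H9 unconditioned to 8.42 in FS inhibitor, and the only step above its pooled SD of 0.38 separated H9 conditioned (7.30) from HSF1 conditioned (8.18). BMP2 had the widest spread within groups, with a pooled SD of 0.93, and none of its steps exceeded it. Each pooled SD mixes spread between cell lines, in the first 12 arrays, with spread between replicates of the same line, in the others. For BMP2 the SD was 1.91 in FS DMSO and 1.7 in FS inhibitor, 0.39 and 0.42 in the FF groups, and 0.09 to 0.24 in the conditioned and unconditioned groups. The pooled SD therefore cannot judge the BMP2 step of 0.69 from HSF1 unconditioned to HSF1 conditioned, which is tested below. MSX1 and MSX2 were the members nearest the medians of the arrays (6.09 to 6.35), a range in which background weighs on a value. Whether all 24 arrays were normalized together is not given in the sources used here, so no test was made between the first 12 arrays and the others.

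**Figure D1:**
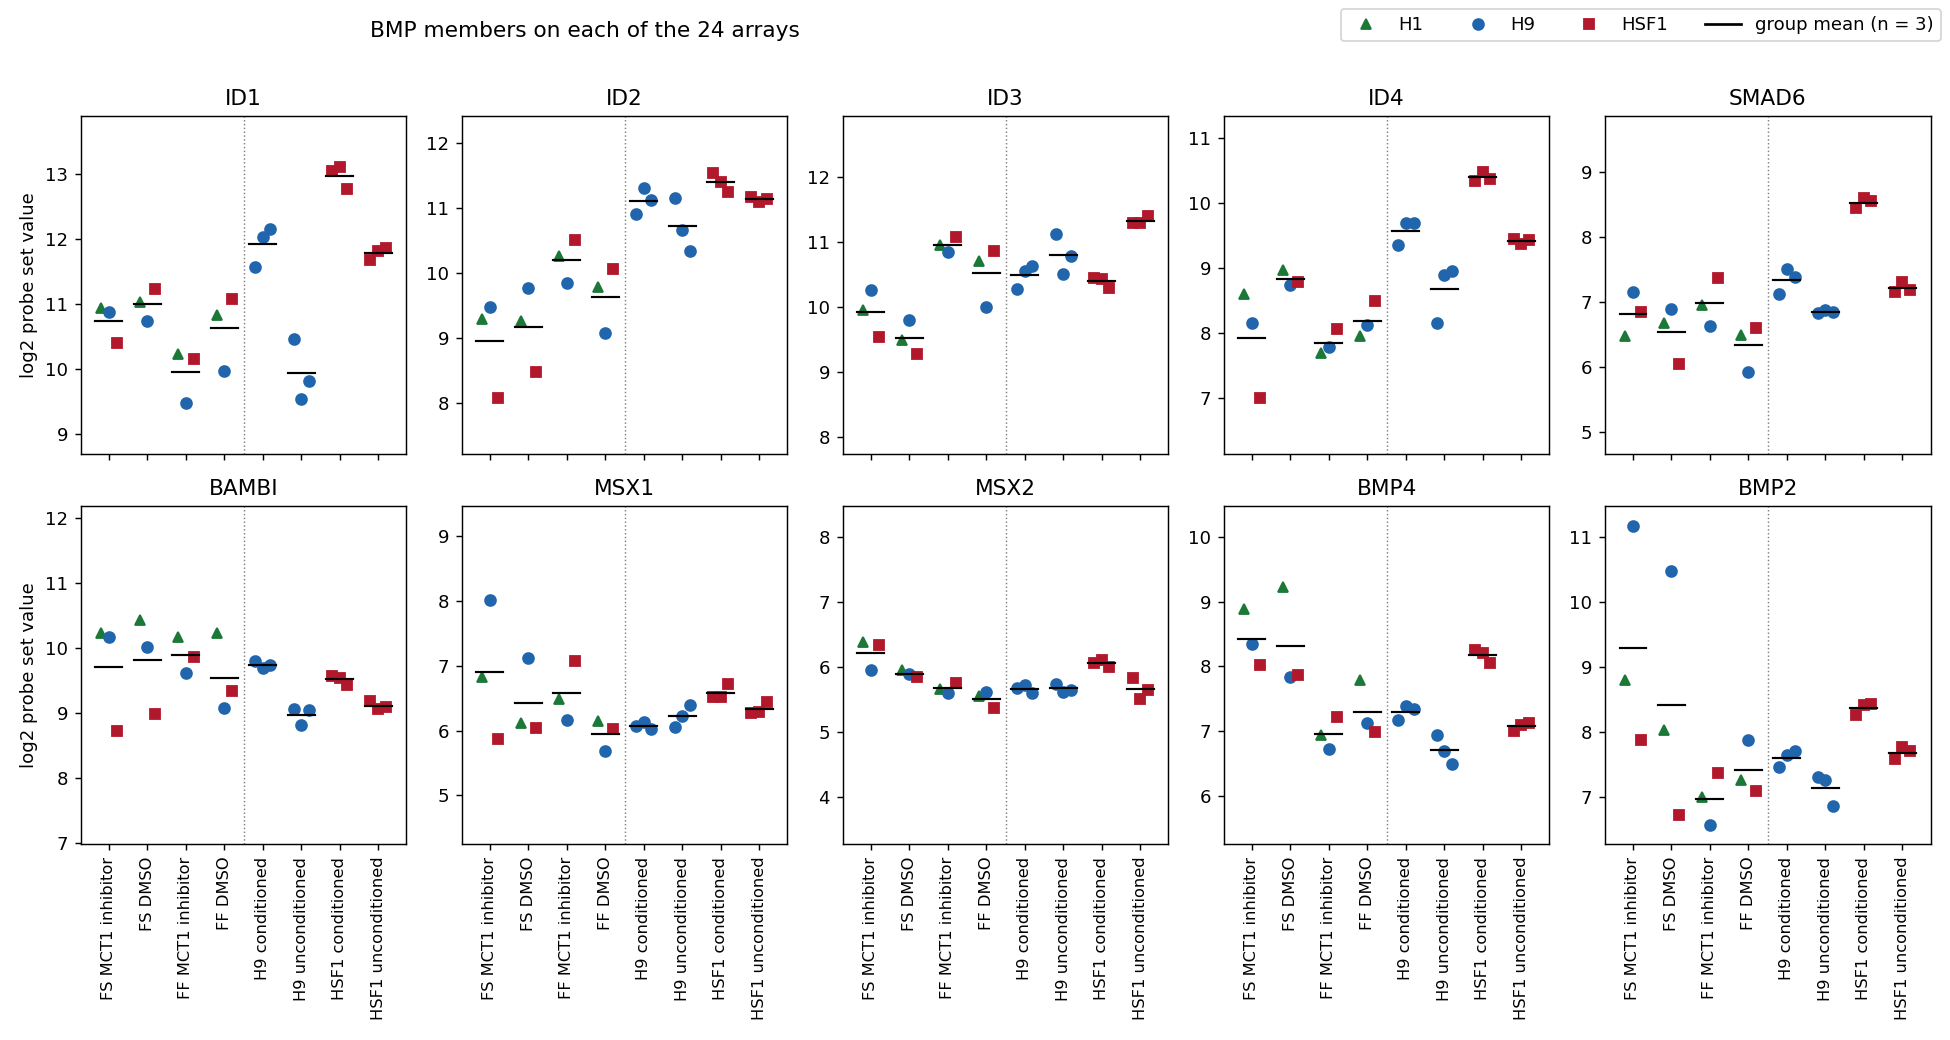
Log2 probe set value (vertical axis) of each member in the 8 groups (horizontal axis), with 1 point per array, the marker giving the cell line and the line the group mean of 3 arrays. ID1 and ID4 were highest in HSF1 cells in conditioned medium, with means of 12.97 and 10.40, while the FS arrays of H9 held the highest BMP2 values, 11.17 and 10.48.

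In conditioned medium both ligands, ID1, ID4, SMAD6 and BAMBI were higher in HSF1 and in H9 cells, while ID3 was lower in HSF1. In HSF1, 7 of 10 members were higher and 1 was lower at an adjusted p under 0.05, where 8.57% and 9.78% of all 16572 genes tested were higher and lower (18.3% in either direction). In H9, 6 of 10 members were higher and 0 lower, where 3.45% and 13% of all genes were (16.4% in either direction). The median difference of the members was 0.55 in HSF1 and 0.47 in H9, beside 0.03 and -0.03 over all genes. In bulk RNA, more cells that express a gene and more RNA per cell cannot be told apart.

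BMP4 had 8.26, 8.20 and 8.06 in HSF1 cells in conditioned medium, against 7.01, 7.10 and 7.13 in unconditioned medium. The difference was 1.10 (SE 0.105, adjusted p = 2.13e-06), a 2.14-fold level, and the groups did not overlap. In H9, BMP4 had 7.17, 7.39 and 7.35 in conditioned medium, against 6.95, 6.70 and 6.50 in unconditioned medium, a difference of 0.59 (SE 0.105, adjusted p = 0.00132). BMP2, the second ligand, had 8.26, 8.41 and 8.43 in HSF1 cells in conditioned medium, against 7.58, 7.76 and 7.70 in unconditioned medium, a difference of 0.69 (SE 0.109, adjusted p = 0.000329). In H9, BMP2 had 7.46, 7.64 and 7.70 in conditioned medium, against 7.30, 7.26 and 6.86 in unconditioned medium, a difference of 0.46 (SE 0.109, adjusted p = 0.00954). All 3 conditioned arrays lay above all 3 unconditioned arrays for both ligands in both lines. Without the H9 arrays of high ACTB difference the H9 differences of BMP4 and BMP2 were 0.36 (adjusted p = 0.115) and 0.30 (adjusted p = 0.202), with the 1 remaining unconditioned array assumed to vary like the other groups.

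ID1 showed the largest change of any member in H9. It had 11.57, 12.02 and 12.15 in H9 cells in conditioned medium, against 10.46, 9.53 and 9.81 in unconditioned medium, a difference of 1.98 (SE 0.18, adjusted p = 2.5e-06) or 3.95-fold. In HSF1, ID1 had 13.04, 13.10 and 12.77 in conditioned medium, against 11.67, 11.81 and 11.86 in unconditioned medium, a difference of 1.19 (SE 0.18, adjusted p = 0.000218). The groups were well separated in each line, and without the H9 arrays of high ACTB difference the H9 value was 1.46 (adjusted p = 9.81e-05). ID4, which is expressed in neural progenitors among other cells, had 10.34, 10.48 and 10.38 in HSF1 cells in conditioned medium, against 9.45, 9.38 and 9.43 in unconditioned medium, a difference of 0.98 (SE 0.154, adjusted p = 0.000304). In H9 it had 9.35, 9.69 and 9.70 in conditioned medium, against 8.16, 8.90 and 8.96 in unconditioned medium, a difference of 0.91 (SE 0.154, adjusted p = 0.000897). The unconditioned H9 array with the low ACTB difference held the lowest of these ID4 values, and the difference was 1.42 (adjusted p = 4.65e-06) when it alone stood for unconditioned medium.

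ID3 went the other way from ID1 and ID4. In HSF1 it had 10.44, 10.43 and 10.29 in conditioned medium, against 11.29, 11.29 and 11.39 in unconditioned medium, so it fell by 0.94 (SE 0.12, adjusted p = 4.15e-05). In H9 it had 10.27, 10.55 and 10.62 in conditioned medium, against 11.11, 10.50 and 10.77 in unconditioned medium, and the groups overlapped (difference -0.32, SE 0.12, adjusted p = 0.0833). That difference was -0.64 (adjusted p = 0.00356) without the H9 arrays of high ACTB difference. ID2 was not past the threshold in either line, with differences of 0.27 (95% interval -0.05 to 0.58) in HSF1 and 0.39 (0.08 to 0.71) in H9. The H9 difference was -0.05 (adjusted p = 0.92) without the H9 arrays of high ACTB difference, and 0.61 (adjusted p = 0.000808) without replicate 1, when only those 2 arrays stood for unconditioned medium. ID2 had 11.55, 11.41 and 11.26 in HSF1 cells in conditioned medium, against 11.17, 11.10 and 11.15 in unconditioned medium. The 4 ID genes did not move as a block: ID1 and ID4 were higher, ID2 was not called, and ID3 was lower in HSF1.

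MSX2 was higher in HSF1 cells only slightly, at 6.07, 6.12 and 6.01 in conditioned medium, against 5.84, 5.52 and 5.66 in unconditioned medium (difference 0.39, SE 0.0972, adjusted p = 0.00962). Its call was lost without replicate 2 of unconditioned HSF1 (difference 0.32, adjusted p = 0.0614). In H9 the MSX2 difference was -0.01 (95% interval -0.21 to 0.20). MSX1 differed by 0.24 (95% interval 0.03 to 0.46) in HSF1 and by -0.15 (-0.36 to 0.07) in H9, neither past the threshold after adjustment. By the probe set used for each gene, all MSX1 and MSX2 values of these 12 arrays lay between 5.52 and 6.71.

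Both feedback inhibitors were higher in both lines. SMAD6 had 8.44, 8.60 and 8.55 in HSF1 cells in conditioned medium, against 7.15, 7.31 and 7.19 in unconditioned medium, a difference of 1.31 (SE 0.0937, adjusted p = 6.51e-08) or 2.49-fold. In H9, SMAD6 had 7.12, 7.51 and 7.39 in conditioned medium, against 6.83, 6.87 and 6.85 in unconditioned medium, a difference of 0.49 (SE 0.0937, adjusted p = 0.00238). BAMBI had 9.79, 9.69 and 9.74 in H9 cells in conditioned medium, against 9.05, 8.81 and 9.04 in unconditioned medium, a difference of 0.77 (SE 0.0775, adjusted p = 6.49e-06). In HSF1, BAMBI had 9.57, 9.54 and 9.42 in conditioned medium, against 9.18, 9.06 and 9.08 in unconditioned medium, a difference of 0.40 (SE 0.0775, adjusted p = 0.00164). The groups did not overlap for either gene in either line.

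**Figure D2:**
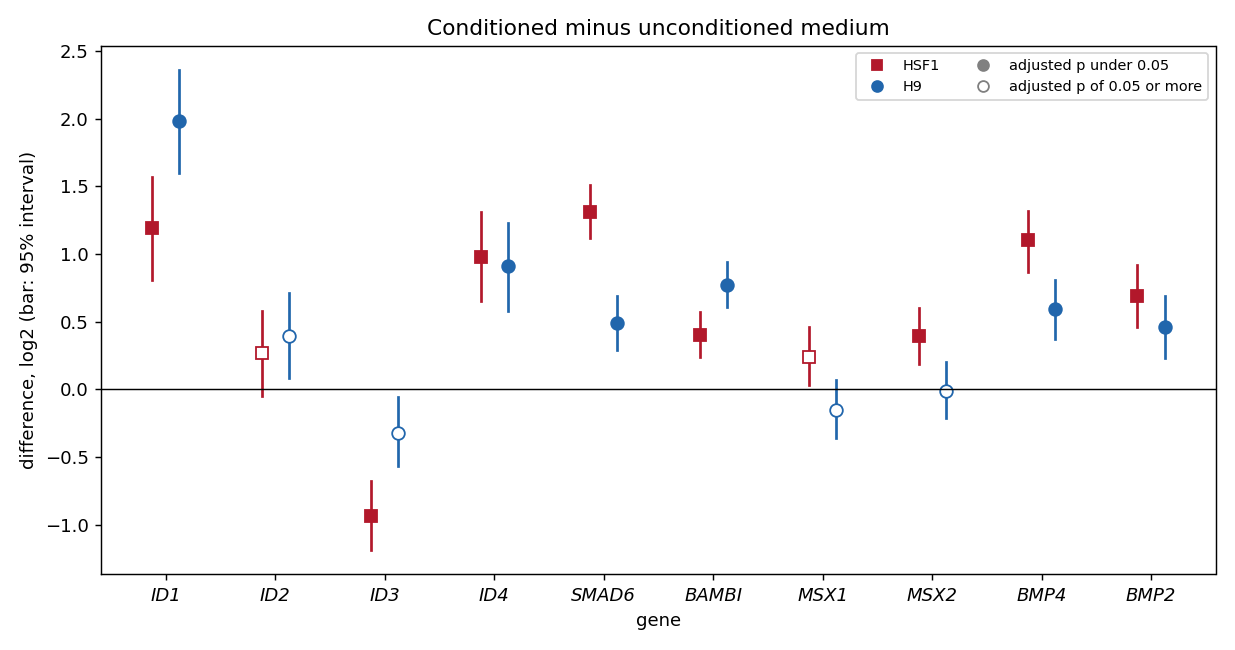
Difference between conditioned and unconditioned medium on the log2 scale (vertical axis) for each member (horizontal axis), in HSF1 (squares, left) and H9 (circles, right), with bars for the 95% interval of the fit on 3 arrays per group and filled markers for an adjusted p under 0.05. ID1, ID4, SMAD6, BAMBI, BMP4 and BMP2 were past the threshold above 0 in both lines, and ID3 below 0 in HSF1.

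Whether the response differed between the lines was tested as an interaction, with 7.73% of all genes past the threshold (5.65% higher and 2.08% lower). It was larger in HSF1 for SMAD6, by 0.83 (SE 0.132, adjusted p = 0.00201), and for BMP4, by 0.50 (SE 0.148, adjusted p = 0.0482), and ID3 differed by -0.62 (SE 0.17, adjusted p = 0.0361). The SMAD6 call held in each fit without 1 array (0.72 to 0.91), while those of BMP4 (0.39 to 0.61) and of ID3 (-0.78 to -0.47) were each lost in 10 of the 12 fits without 1 array, and the ID3 difference was -0.30 (adjusted p = 0.248) without the H9 arrays of high ACTB difference. The interaction values of ID1 (-0.79, adjusted p = 0.0661) and BAMBI (-0.37, adjusted p = 0.0523) were not past the threshold. Without the H9 arrays of high ACTB difference they were -0.27 (adjusted p = 0.513) and -0.29 (adjusted p = 0.166), while BMP4 was 0.74 (adjusted p = 0.0117) and SMAD6 0.81 (adjusted p = 0.0151). When only those 2 arrays stood for unconditioned H9, ID1 and BAMBI passed at -1.06 (adjusted p = 0.00127) and -0.41 (adjusted p = 0.0145), and ID1 also passed without replicate 1 of conditioned H9 (-0.97, adjusted p = 0.0366).

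The probe sets of a gene did not always move together. All 4 tested ID4 probe sets were past the threshold in both lines, with differences of 0.60 to 1.25 in HSF1 and 0.69 to 0.91 in H9. Both BMP2 probe sets were as well, at 0.60 and 0.69 in HSF1 and 0.35 and 0.46 in H9. For SMAD6, 207069_s_at gave the differences above, whereas 209886_s_at, 209887_at and 213565_s_at differed by -0.07, 0.04 and 0.23 in HSF1 and by -0.07, 0.29 and 0.33 in H9, none past the threshold. Those 3 SMAD6 probe sets had group means of 4.79 to 6.54, lower than those of 207069_s_at at 6.85 to 8.53. Averaged over its 4 probe sets, 207069_s_at among them, SMAD6 was past the threshold at 0.38 in HSF1 (adjusted p = 0.00128) and 0.26 in H9 (adjusted p = 0.0201). Because the average holds 207069_s_at, it is no separate support for that probe set. For the interaction the averaged value was 0.12 (adjusted p = 0.509). The second ID2 probe set, 201566_x_at, differed by 0.07 in HSF1 and 0.06 in H9, and the second MSX1 probe set, 228473_at, by 0.00 in HSF1 and 0.24 in H9, beside 0.24 and -0.15 for the brighter MSX1 probe set, with none of these past the threshold. Of all probe sets tested on their own, 11.4% were past the threshold in HSF1 and 10.1% in H9, beside 12 and 10 of the 19 member probe sets.

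**Figure D3:**
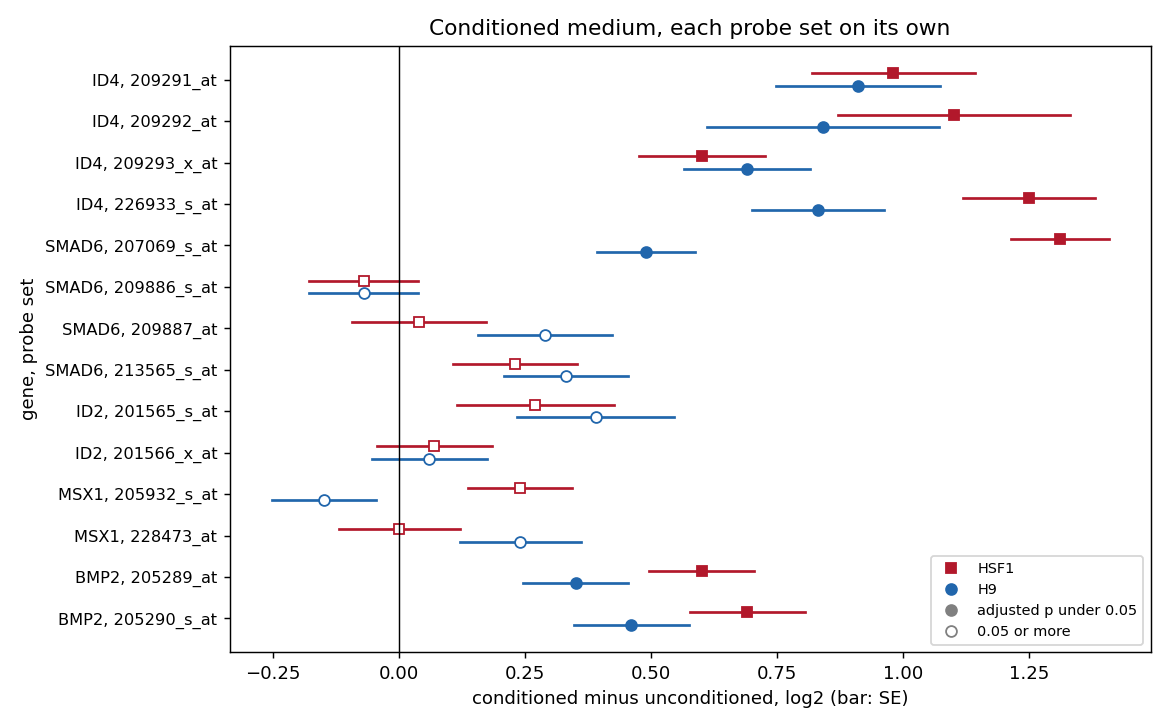
Difference between conditioned and unconditioned medium on the log2 scale (horizontal axis) for each tested probe set of the members with more than 1 tested probe set (vertical axis), in HSF1 (squares) and H9 (circles), with bars for the SE and filled markers for an adjusted p under 0.05 over all probe sets. The ID4 probe sets lie together between 0.60 and 1.25, while of the 4 SMAD6 probe sets only 207069_s_at is past the threshold.

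Other genes of the pathway were described from 7 lists of 70 genes. In HSF1, 14 were higher and 2 lower of 61 tested, where 8.57% and 9.78% of all genes were (18.3% in either direction). In H9, 11 were higher and 3 lower of 61, where 3.45% and 13% of all genes were (16.4% in either direction). Of 14 other BMP-induced genes, 6 were higher in HSF1 and 3 in H9, with none lower. TFAP2A, a transcription factor of surface ectoderm, amnion and trophoblast, averaged 6.98 in conditioned and 4.90 in unconditioned medium in HSF1, a difference of 2.08 (SE 0.151, adjusted p = 7.71e-08), and was higher by 1.63 in H9 (SE 0.151, adjusted p = 2.99e-06). Its paralogue TFAP2C was higher by 1.52 in HSF1 (SE 0.125, adjusted p = 3.9e-07) and by 0.82 in H9 (SE 0.125, adjusted p = 0.000356), and GATA3 by 0.63 in HSF1 (SE 0.131, adjusted p = 0.00305). The trophoblast and amnion marker list, which shares TFAP2A and GATA3 with that list, had 3 of 9 tested genes higher and 3 lower in HSF1, and 1 higher and 0 lower in H9.

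Among intracellular inhibitors, SMAD7, the second inhibitory SMAD, was higher by 0.40 in HSF1 (SE 0.0779, adjusted p = 0.00176) and by 0.70 in H9 (SE 0.0779, adjusted p = 1.69e-05). SKIL, a SMAD corepressor, was higher by 0.73 in HSF1 (SE 0.0769, adjusted p = 5.81e-06) and by 0.81 in H9 (SE 0.0769, adjusted p = 3.76e-06). Both are also induced by TGF-beta and activin signals. Of 10 tested extracellular antagonists, 2 were higher in HSF1, and 3 were higher and 2 lower in H9. Of all genes, 18.3% were past the threshold in HSF1 and 16.4% in H9, in either direction. FST, which binds activins and BMPs, was higher by 1.27 in HSF1 (SE 0.0888, adjusted p = 5.4e-08) and by 0.93 in H9 (SE 0.0888, adjusted p = 3.95e-06). Of 10 other tested ligands, 0 passed the threshold in HSF1 and 2 were higher in H9, GDF3 (0.47) and GDF5 (0.34). Of 10 tested receptors and co-receptors, RGMA (0.52) and RGMB (0.48), membrane proteins that aid BMP binding, were higher in HSF1 and 0 passed in H9. Among 7 signal transducers, ZNF423 was lower in both lines, with differences of -0.21 in HSF1 (SE 0.0656, adjusted p = 0.0375) and -0.28 in H9 (SE 0.0656, adjusted p = 0.00862). SMAD1 was lower by 0.28 in HSF1 (SE 0.0867, adjusted p = 0.0323).

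In unconditioned medium 6 of 10 members were higher in HSF1 than in H9 and 0 lower, where 10.2% of all genes were higher and 13.4% lower (23.6% in either direction). ID1 averaged 11.78 ± 0.10 in HSF1 and 9.93 ± 0.47 in H9 (SD, n = 3 each), a difference of 1.85 (SE 0.18, adjusted p = 1.99e-06). ID4 differed by 0.75 (SE 0.154), BMP2 by 0.54 (SE 0.109), ID3 by 0.53 (SE 0.12), SMAD6 by 0.37 (SE 0.0937) and BMP4 by 0.37 (SE 0.105). The H9 group of this comparison holds both arrays of high ACTB difference. Without them only 2 members (8.36% of all genes) were past the threshold, ID1 at 1.33 (adjusted p = 9.38e-05) and ID4 at 1.26 (adjusted p = 3.51e-06), while BMP4 was at 0.13, ID3 at 0.21, BMP2 at 0.38 and SMAD6 at 0.39, none of these 4 past the threshold. With 1 array left out the BMP4 difference was 0.26 to 0.48 and lost its call in 4 of 6 fits, and SMAD6 lost its call without replicate 2 of unconditioned HSF1 (0.32, adjusted p = 0.0537).

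On feeders, BMP4 was higher and ID3 lower than without feeders, with DMSO and with the MCT1 inhibitor. The FS arrays had a narrower range of values over all probe sets. Their interquartile ranges were 2.45 to 2.85, against 3.08 to 3.3 on the FF arrays of the same set. The part of this narrower range in the feeder differences was not tested. Quantile normalization, which gives the arrays of a set the same distribution, is reported below as an alternative. With the inhibitor 4 of 10 members were higher and 2 lower, where 19.3% and 27.8% of 17218 genes were (47.1% in either direction). With DMSO 1 was higher and 1 lower, where 15.2% and 24.1% of all genes were (39.3% in either direction). The median difference of the members was 0.20 with the inhibitor and 0.38 with DMSO, beside -0.20 and -0.19 over all genes, and quantile normalization moved the all-gene value with DMSO to 0.04. Under that normalization 50.6% of the genes called with DMSO were higher, compared with 38.7% in the values as deposited, and 3 members were called, all higher, where 18.2% of all genes were called. The 2 of 10 members called with DMSO are a smaller share than that of all genes. Without the H1 line 0 members were called under either treatment, where 4.59% of all genes were with the inhibitor and 5.49% with DMSO. Without H9, 3 members (18.1% of all genes) were called with the inhibitor and 0 (2.14%) with DMSO, and with the ACTB difference as a covariate 1 (4.35%) and 1 (2.04%).

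With the inhibitor BMP4 had 8.89, 8.35 and 8.03 in FS cultures of H1, H9 and HSF1, against 6.94, 6.73 and 7.23 in FF cultures, a difference of 1.46 (SE 0.273, adjusted p = 0.00493) or 2.74-fold. With DMSO BMP4 had 9.23, 7.84 and 7.87 in FS cultures of H1, H9 and HSF1, against 7.79, 7.13 and 6.99 in FF cultures, a difference of 1.01 (SE 0.273, adjusted p = 0.0198). BMP4 was higher on feeders in 3 of 3 lines under both treatments. Its call with the inhibitor was lost without the H1 line (1.21, adjusted p = 0.0557). With DMSO it was lost without H1 (0.80, adjusted p = 0.103), without H9 (1.16, adjusted p = 0.0919), with the ACTB difference as a covariate (1.13, adjusted p = 0.164) and without the block for line (1.01, adjusted p = 0.0766). BMP2 with the inhibitor had 8.80, 11.17 and 7.88 in FS cultures of H1, H9 and HSF1, against 6.99, 6.57 and 7.36 in FF cultures, a difference of 2.31 (SE 0.658, adjusted p = 0.0193). With DMSO BMP2 had 8.03, 10.48 and 6.72 in FS cultures, against 7.26, 7.88 and 7.09 in FF cultures, a difference of 1.00 (95% interval -0.44 to 2.43) that was not past the threshold, but was 1.86 (adjusted p = 0.0261) without the FS arrays of HSF1. H9 carried most of the BMP2 difference: the value with the inhibitor was 1.17 (adjusted p = 0.0581) without the H9 line and 2.56 (adjusted p = 0.0808) without H1. That BMP2 call was also lost with the ACTB covariate (2.70, adjusted p = 0.0859) and without the block for line (2.31, adjusted p = 0.065).

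ID3 with the inhibitor had 9.94, 10.26 and 9.53 in FS cultures of H1, H9 and HSF1, against 10.94, 10.84 and 11.07 in FF cultures, so it fell by 1.04 (SE 0.277, adjusted p = 0.0157). With DMSO ID3 had 9.48, 9.80 and 9.27 in FS cultures, against 10.70, 9.99 and 10.86 in FF cultures, and fell by 1.00 (SE 0.277, adjusted p = 0.021). Both pairs of groups were separate, with the smallest difference in H9. After quantile normalization the DMSO difference of ID3 was -0.53 (adjusted p = 0.0784). The ID3 call with the inhibitor was lost without H1 (-1.06, adjusted p = 0.0989), and that with DMSO without H1 (-0.89, adjusted p = 0.136) and without H9 (-1.40, adjusted p = 0.0554). With the ACTB covariate both ID3 calls were lost (-0.87, adjusted p = 0.153, with the inhibitor and -0.80, adjusted p = 0.298, with DMSO). ID2 with the inhibitor had 9.30, 9.48 and 8.09 in FS cultures, against 10.26, 9.85 and 10.51 in FF cultures, and fell by 1.25 (SE 0.413, adjusted p = 0.0311). The ID2 difference was -0.63 (adjusted p = 0.0502) without the FS arrays of HSF1, which held its lowest values, -0.66 (adjusted p = 0.0733) without the HSF1 line and -1.39 (adjusted p = 0.109) without H1. It was -0.72 (adjusted p = 0.339) with the ACTB covariate, -0.82 (adjusted p = 0.0828) after quantile normalization and -1.25 (adjusted p = 0.0523) without the block for line.

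ID1 with the inhibitor had 10.94, 10.87 and 10.39 in FS cultures of H1, H9 and HSF1, against 10.22, 9.47 and 10.15 in FF cultures, a difference of 0.79 (SE 0.258, adjusted p = 0.0305). With DMSO the ID1 difference was 0.37 (95% interval -0.19 to 0.94), positive in 3 of 3 lines and not past the threshold. MSX2 with the inhibitor had 6.39, 5.96 and 6.34 in FS cultures, against 5.67, 5.61 and 5.76 in FF cultures, a difference of 0.55 (SE 0.162, adjusted p = 0.0214). MSX2 differed by 0.38 (95% interval 0.03 to 0.74) with DMSO. The calls of ID1 and MSX2 with the inhibitor were lost without H1 (0.82, adjusted p = 0.139, and 0.47, adjusted p = 0.191) and without H9 (0.48, adjusted p = 0.22, and 0.65, adjusted p = 0.0586). Both were also lost with the ACTB covariate (0.97, adjusted p = 0.104, and 0.57, adjusted p = 0.14), ID1 without the block for line (0.79, adjusted p = 0.0776) and MSX2 after quantile normalization (0.42, adjusted p = 0.068). ID4, SMAD6, BAMBI and MSX1, each by its brightest probe set, were not past the threshold under either treatment, and SMAD6, BAMBI and MSX1 were higher on feeders in H9 and lower in HSF1 with the inhibitor. Without the FS arrays of HSF1, ID4 passed the threshold at 0.66 (adjusted p = 0.00958) with the inhibitor and at 0.79 (adjusted p = 0.00435) with DMSO, and BAMBI passed with DMSO at 0.63 (adjusted p = 0.0303).

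Some dimmer probe sets of these genes gave other values. With each probe set tested on its own, 8 of the 19 member probe sets were higher and 3 lower with the inhibitor, beside 47.2% of all probe sets in either direction, and 4 were higher and 1 lower with DMSO, beside 39.5%. For SMAD6, 207069_s_at differed by -0.17 with the inhibitor, while 209886_s_at differed by 0.62 (adjusted p = 0.0131), 213565_s_at by 0.54 (adjusted p = 0.0367) and 209887_at by 0.64 (adjusted p = 0.059). The second MSX1 probe set, 228473_at, was higher by 0.78 with the inhibitor (adjusted p = 0.0168) and by 0.85 with DMSO (adjusted p = 0.015). Averaged over its probe sets SMAD6 was higher by 0.41 with the inhibitor (adjusted p = 0.0337) and by 0.46 with DMSO (adjusted p = 0.0277). Both ID2 probe sets were lower on feeders with the inhibitor, with differences of -1.25 and -0.86.

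**Figure D4:**
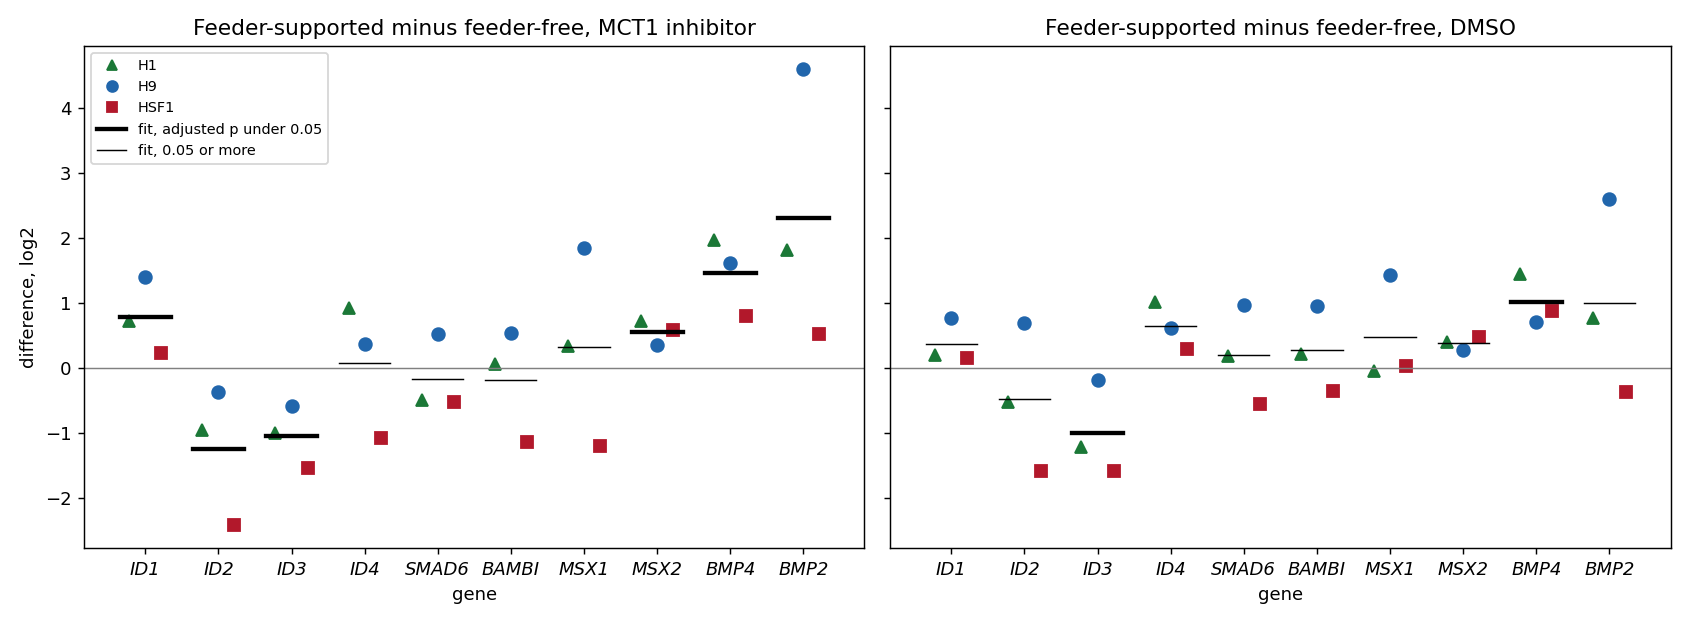
Feeder-supported minus feeder-free difference on the log2 scale (vertical axis) in each line for each member (horizontal axis), with the MCT1 inhibitor (left) and with DMSO (right), and the fitted difference as a thick line where the adjusted p was under 0.05 and a thin line elsewhere. BMP4 lay above 0 and ID3 below 0 in all 3 lines of both panels, and the H9 value of BMP2 reached 4.60 with the inhibitor.

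Of 65 other pathway genes tested on these arrays, 24 were higher and 7 lower on feeders with the inhibitor. Of all genes, 19.3% were higher and 27.8% lower (47.1% in either direction). With DMSO 19 were higher and 5 lower, where 15.2% and 24.1% of all genes were (39.3% in either direction). In either direction the shares were close to those of all genes. More of the called pathway genes were higher than lower, while more of all called genes were lower. The antagonist CER1, a marker of anterior endoderm, averaged 9.96 in FS and 5.83 in FF cultures with the inhibitor (difference 4.14, SE 0.821, adjusted p = 0.0061), and differed by 3.34 with DMSO (SE 0.821, adjusted p = 0.0146). FST was higher by 1.67 with the inhibitor (SE 0.353, adjusted p = 0.00767) and by 1.45 with DMSO (SE 0.353, adjusted p = 0.0139), while CHRDL1, a chordin-like antagonist, fell by 1.60 (SE 0.258, adjusted p = 0.00243) and by 1.32 (SE 0.258, adjusted p = 0.00667). GATA3 was higher by 1.32 with the inhibitor and 2.01 with DMSO, TFAP2C by 1.30 and 1.59, and ATOH8 by 0.92 and 0.94. The ligand GDF5 was higher by 1.27 and 1.08, and the E protein TCF3, a binding partner of ID proteins, fell by 0.91 and 0.88.

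Markers of other cell types were also read in the feeder comparison, where 47.1% of all genes passed the threshold with the inhibitor and 39.3% with DMSO. The mean of 19 fibroblast genes was 7.58 to 8.32 in FS and 7.02 to 7.80 in FF cultures with the inhibitor, where 4 were higher and 3 lower. With DMSO it was 7.43 to 8.08 in FS and 6.66 to 7.45 in FF cultures, where 8 were higher and 0 lower. Among 8 genes of mesoderm and the primitive streak, 5 were higher and 1 lower with the inhibitor, and 3 were higher and 1 lower with DMSO. Of 10 pluripotency genes tested, 7 and 5 were lower and none higher. The part of these shifts in the member differences was not tested. In conditioned medium the fibroblast mean was 6.68 to 6.84 in HSF1, against 6.78 to 6.87 in unconditioned medium, and 6.91 to 6.95 in H9, against 6.94 to 6.99.

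The MCT1 inhibitor changed none of the 10 members past the threshold in limma. In FS culture 0 members and 0.00581% of all genes passed, and 1 member had an unadjusted p under 0.05. In FF culture 0 members and 0.842% of genes passed, with 2 members at an unadjusted p under 0.05. Over both culture systems 0 members and 0.639% of genes passed, with 3 at an unadjusted p under 0.05. For the difference in inhibitor effect between FS and FF culture, 0 members and 0.0174% of genes passed, with 0 members at an unadjusted p under 0.05. The FS and FF comparisons use separate arrays but 1 shared estimate of the spread, to which differences between the lines in their response to feeders contribute.

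ID1 in FF culture had 10.22, 9.47 and 10.15 with the inhibitor in H1, H9 and HSF1, against 10.83, 9.97 and 11.07 with DMSO. The difference was -0.67 (95% interval -1.24 to -0.11, unadjusted p = 0.0234, adjusted p = 0.462), lower in 3 of 3 lines. In FS culture the ID1 difference was -0.26 (95% interval -0.82 to 0.31). ID4 in FS culture had 8.60, 8.16 and 7.0 with the inhibitor, against 8.97, 8.74 and 8.79 with DMSO, a difference of -0.91 (95% interval -1.66 to -0.17, adjusted p = 1) in which HSF1 had the lowest value. SMAD6 in FF culture had 6.95, 6.63 and 7.37 with the inhibitor, against 6.49, 5.92 and 6.60 with DMSO, a difference of 0.65 (95% interval 0.01 to 1.28, adjusted p = 0.625). BMP4 differed by 0.11 (95% interval -0.49 to 0.71) in FS and by -0.34 (-0.93 to 0.26) in FF culture. Without the FS arrays of HSF1, which enter only through the shared spread and line terms, ID1 in FF culture passed at -0.67 (adjusted p = 0.0257), where 9.67% of all genes did. Over both culture systems ID4 then passed at -0.41 (adjusted p = 0.0483), where 7.94% did. Fitted on the 6 arrays of FF culture alone, ID1 (adjusted p = 0.00493), SMAD6 (0.00766), ID2 (0.00678), ID4 (0.0288) and MSX1 (0.0303) passed the threshold with the same differences, where 19% of all genes passed, and on the 6 FS arrays alone, where 1.97% did, BMP2 (0.88, adjusted p = 4.47e-05) and ID4 (-0.91, adjusted p = 0.000216) did. None of 65 other pathway genes tested passed the threshold in any of these 4 inhibitor comparisons.

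**Figure D5:**
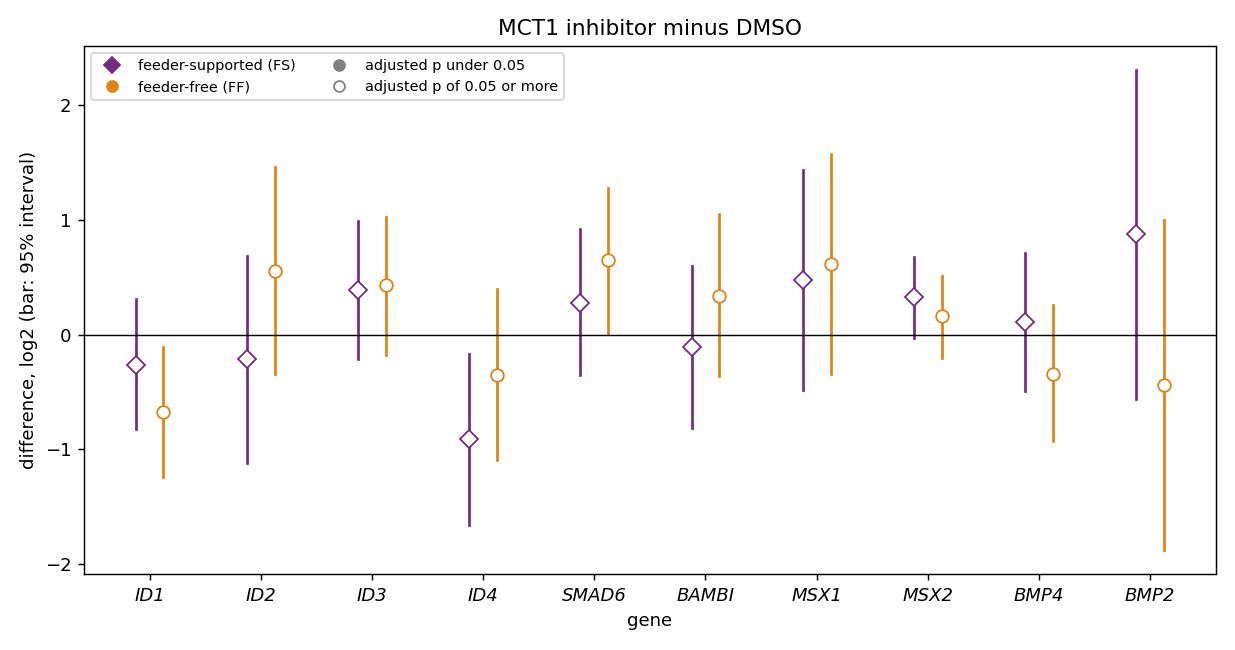
Difference between MCT1 inhibitor and DMSO on the log2 scale (vertical axis) for each member (horizontal axis), in feeder-supported (diamonds, left) and feeder-free (circles, right) culture, with bars for the 95% interval of the fit on 3 lines per group. No marker is filled, since no member had an adjusted p under 0.05, and the ID1 value was -0.67 in feeder-free culture.

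The genes whose levels ran most like the members were found among 17292 genes by Pearson correlation over the 24 arrays, given as a description since the arrays share lines and groups. The mean of ID1, ID2 and ID3 was closest to INSR, which encodes the insulin receptor, at 0.959 (0.869 and 0.927 within the first and the second 12 arrays). RPS9 (0.938), GKAP1 (0.933), SNHG32 (0.932) and MRPL34 (0.929) followed. These 4 had 0.888, 0.888, 0.849 and 0.736 within the first 12 arrays and 0.932, 0.85, 0.924 and 0.936 within the second. That mean leaves out ID4 and joins ID1 and ID3, which went opposite ways in conditioned medium. The 24-array values also span 2 sets whose joint normalization is not known. BMP4 was closest to COX7A1 (0.891), SERTAD4-AS1 (0.872) and RHOC (0.86), at 0.925, 0.962 and 0.847 within the first 12 arrays and 0.865, 0.652 and 0.875 within the second.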

How the data were processed

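Total RNA was profiled, with biotin as the label, on 24 Affymetrix U133 Plus 2.0 arrays of 54675 probe sets. The deposited log2 values were made with RMA, per the submitters' processing notes, a method that corrects background, normalizes and summarises probes. Its version is not given in the sources used here. Samples were grouped from their titles. Genes above 5 on at least 3 of 12 arrays were tested with limma 3.58.1 in R 4.3.3 (lmFit, eBayes with an intensity trend), separately in each set of 12 arrays, with Benjamini-Hochberg adjustment over all genes tested and a threshold of 0.05. The method was tested on simulated data. Those data gave each line of the first set a constant shift, so they do not cover lines that differ in their response to feeders.

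In the first set the replicate number is the cell line, which pairs the samples and was a block. In the second, deviations of same-numbered arrays correlated at -0.266 to 0.134, so no block was used. P-values there measure the spread between biological replicates within lines, with 1 estimate per gene shared by H9 and HSF1. The SDs of ID1 in conditioned and unconditioned medium were 0.31 and 0.47 in H9, and 0.18 and 0.10 in HSF1. Fitted on the H9 arrays alone, BMP2 lost its H9 call (0.46, adjusted p = 0.0512). Alternatives covered normalization, filter, probe sets, trend, weights, blocks, RNA quality and left-out arrays; the fits without the H9 arrays of high ACTB difference and without the FS arrays of H9 were chosen after the data were seen.

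The members, the gene lists and the alternatives were chosen with earlier results of these data known. Named genes are the 10 members with all their probe sets, up to 3 genes past the threshold with the smallest p per list, and the 5 and 3 genes most correlated with the members.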

Additional observations from a re-analysis of the deposited data

Results flagged for a closer look

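The response to conditioned medium differed between the lines by an interaction test for 3 members, HSF1 minus H9. On the log2 scale SMAD6 differed by 0.83 (SE 0.132, adjusted p = 0.00201), resting on 1 of its 4 probe sets. ID3 differed by -0.62 (SE 0.17, adjusted p = 0.0361), with all 3 conditioned arrays lower in HSF1 and overlapping groups in H9. BMP4 differed by 0.50 (SE 0.148, adjusted p = 0.0482), close to the threshold. Without the H9 arrays of high ACTB difference the values were 0.81 (adjusted p = 0.0151) for SMAD6, -0.30 (adjusted p = 0.248) for ID3 and 0.74 (adjusted p = 0.0117) for BMP4.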

How the results depend on the processing

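The counts of members called in conditioned medium stayed within 5 to 7 in H9 and 7 to 9 in HSF1 under every alternative run. As reported, 16.4% and 18.3% of all genes were called. The share of all genes under each of these alternatives, the replicate block among them, is not given here. A steady count alone therefore does not show that the members were steadier than other genes. With the replicate block they were 6 in H9, 8 in HSF1, 3 for the interaction and 6 for HSF1 minus H9, so no count moved, but in the interaction BMP4 lost its call (0.50, adjusted p = 0.053) and BAMBI gained one (-0.37, adjusted p = 0.0453), with no other member's call changed. For FS minus FF with DMSO, 2 members were called as reported (39.3% of all genes), 4 with the mean of all probe sets (42.8%), 9 with array weights (66%), 1 with the ACTB covariate (2.04%), 1 with no replicate block (10.7%), 5 without the FS arrays of HSF1 (48.6%), and 0 to 3 with 1 line left out (2.14% to 37.5%). With the inhibitor, 6 were called (47.1% of all genes), 1 with the ACTB covariate (4.35%), 3 with no replicate block (19.3%) and 0 to 6 with 1 line left out (4.59% to 38.4%). The inhibitor comparisons, with 0 called, gave 2 (FF), 1 (FS) and 3 (mean of both) with array weights (13.9%, 11.3% and 34.2% of all genes), 1 (FF) and 1 (mean) without the FS arrays of HSF1 (9.67% and 7.94%), and 5 (FF) and 2 (FS) with only the compared groups (19% and 1.97%). The interaction with line, with 3 called (7.73% of all genes), gave 0 with the mean of all probe sets (5.63%), 1 with each probe set on its own (5.19%), 1 without the trend (6.09%), 5 with array weights (18.8%), and 1 to 6 with 1 array left out, the 6 being without replicate 1 of unconditioned H9 (19.8%). HSF1 minus H9 gave 2 (8.36%) in place of 6 (23.6%) without the H9 arrays of high ACTB difference. With the mean of all probe sets SMAD6 for FS minus FF with the inhibitor was 0.41 (adjusted p = 0.0337) against -0.17 as reported, and with array weights BMP2 for the inhibitor over both systems was -0.73 (adjusted p = 0.0388) against 0.22. Estimating the array weights gave a convergence warning. Over single members 1541 results kept their side of the threshold, 57 gained and 80 lost a call, and the 2 values just given, neither called as reported, passed with the opposite sign. Quantile normalization raised the share of higher calls over all genes for FS minus FF with DMSO to 50.6%, from 38.7% as deposited, and lowered it for the inhibitor over both systems to 62%, from 73.6%. The causes of these changes were not tested, except that a left-out line or array means fewer samples.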

Other observations

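Marker genes of neuroectoderm also differed in conditioned medium. Of 7 such genes, 5 were higher and 0 lower in HSF1, where 8.57% of all genes were higher, and 1 was higher in H9, where 3.45% were. Their median difference was 0.81 in HSF1 and 0.10 in H9. By the interaction test 3 of the 7 differed between the lines, where 7.73% of all genes did. Of 7 mesoderm and primitive streak genes tested, 0 passed the threshold in HSF1 and 1 was higher in H9.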
